A study of Mus musculus with 2 samples.

Results

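The chromatin of 6 genes of imprinted growth control was examined in nuclei of the embryonic mouse kidney. These were Igf2, which encodes insulin-like growth factor II, its receptors Igf1r and Igf2r, the imprinted non-coding RNAs H19 and Kcnq1ot1, and Cdkn1c, which encodes the cyclin-dependent kinase inhibitor p57. The genes were chosen by name and not by their values here, with earlier results of these data known. In mm10, 4 of them lie near the end of chromosome 7 on the minus strand, H19 at chr7:142575529-142578143, Igf2 at chr7:142650766-142666816, Kcnq1ot1 at chr7:143203458-143296549 and Cdkn1c at chr7:143458339-143461050, while Igf1r lies elsewhere on chromosome 7 and Igf2r on chromosome 17. Each gene was taken with its body and the 10 kb upstream of its annotated start in GENCODE M21, and every accessible region called in that window was a member. The windows held 76 of the 159560 peaks of the Enl-WT library and 62 of the 130027 peaks of the Enl-T1 library. Peaks of the libraries that overlapped were joined, which gave 84 regions in the 6 windows, of which 51 had a peak in both libraries (shared regions).

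IGF2 is a growth-promoting ligand of the embryo that signals mainly through the IGF1 receptor and the insulin receptor, whereas the IGF2 receptor binds the ligand and carries it to lysosomes without a mitogenic signal. Igf2 is expressed mainly from the paternal chromosome and H19 from the maternal one. A control region upstream of H19, which binds the insulator protein CTCF on the maternal chromosome, sets this choice. Cdkn1c is expressed from the maternal chromosome and restrains the cell cycle, and the paternally expressed antisense RNA Kcnq1ot1, which starts in an unmethylated control region inside Kcnq1, silences it in cis. In the mouse Igf2r is expressed from the maternal chromosome, and the antisense RNA Airn starts at a control region in one of its introns. Loss of imprinting at the human IGF2 and H19 locus is well known in Wilms tumour, the childhood tumour of embryonic kidney. The counts used here pool both parental chromosomes, so the alleles cannot be told apart.

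The data were single-nucleus ATAC-seq libraries, in which the transposase Tn5 cuts accessible DNA in each nucleus, made from E15.5 kidneys (embryonic day as labelled) with 1 library per genotype. The Enl-WT kidneys carried Enl+/+ with Wt1 GFPCre/+, and the Enl-T1 kidneys carried Enl flox-T1/+ with Wt1 GFPCre/+, so that both groups carried the Cre knock-in at Wt1 and had 1 intact Wt1 allele each. ENL, the product of Mllt1, is a chromatin reader of acetylated histones, and T1 is a small insertion in its reader domain taken from Wilms tumours and switched on only where Wt1-driven Cre has acted, in the nephron and much of the stromal lineage. The number of embryos or kidneys behind each library was not stated by the labels or the methods. With 1 library per genotype no test between genotypes was possible, genotype and library cannot be told apart, and all intervals below are 95% exact intervals that cover counting error only.

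After barcodes with 2000 to 100000 counts were kept, 9472 Enl-WT and 12635 Enl-T1 nuclei remained, with medians of 14789.5 and 8753 counts per nucleus. Levels are therefore given as counts per 1000000 (CPM) of the counts in shared regions of the same nuclei, and differences as the log2 ratio of Enl-T1 over Enl-WT. Peaks were called separately in each library, and those of Enl-WT were wider, with a mean of 1013 against 912 bases. A wider peak collects more counts, so the widths are given beside the regions that stood apart. Clusters were named from marker genes as progenitor-like (1946 Enl-WT and 4290 Enl-T1 nuclei), stroma-like (2917 and 4810), ureteric epithelium-like (912 and 1770), endothelial-like (773 and 624) and distal tubule- or loop-like (1042 and 238). The progenitor-like class holds clusters 0, 2, 5, 14 and 19, in each of which the list of nephron progenitor markers, such as Six2 and Cited1, was the best of the lists. Different clusters held most of it in each library, namely clusters 5 and 14 in Enl-WT and clusters 0 and 2 in Enl-T1. Within it the summed CPM of the 7 nephron progenitor markers was 570 in Enl-WT and 480 in Enl-T1, that of the 7 early nephron markers was 332 and 422, and that of the 8 stroma markers was 394 and 346. No marker of these lists was at 0, and the part of these shifts in the values below was not tested. Podocyte-like nuclei (700 and 4) and the unnamed cluster 12 (695 and 10), whose leading genes included the proximal tubule gene Hnf4a, were almost absent from Enl-T1 and give levels for Enl-WT alone. The window of Mllt1 itself had 61.4 CPM in Enl-WT and 61.3 CPM in Enl-T1, a measure that cannot show a mutation of the coding sequence.

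The sequences below are those on which the results turn, read from RefSeq on GRCm38.p6 (mm10), 5′ to 3′. RefSeq promoters, which run from 250 bases before to 50 after a start, matched 4 of the 6 members, Igf2, Kcnq1ot1, Igf1r and Igf2r. Igf2 has 4 such promoters, numbered here from the most upstream, and all are shown because they fell in regions that differed between libraries or classes. They lie on the minus strand at chr7:142666767-142667066, chr7:142661222-142661521, chr7:142658755-142659054 and chr7:142657447-142657746. Capitals mark GGGCGG, the GC box, and CCAAT, the CCAAT box, on either strand.
Igf2 promoter 1: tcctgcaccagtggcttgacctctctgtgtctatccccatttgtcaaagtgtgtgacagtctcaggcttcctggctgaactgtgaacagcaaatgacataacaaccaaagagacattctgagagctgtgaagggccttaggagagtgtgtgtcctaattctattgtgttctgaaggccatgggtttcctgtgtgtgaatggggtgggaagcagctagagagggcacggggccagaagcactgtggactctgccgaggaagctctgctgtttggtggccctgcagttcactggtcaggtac
Igf2 promoter 2: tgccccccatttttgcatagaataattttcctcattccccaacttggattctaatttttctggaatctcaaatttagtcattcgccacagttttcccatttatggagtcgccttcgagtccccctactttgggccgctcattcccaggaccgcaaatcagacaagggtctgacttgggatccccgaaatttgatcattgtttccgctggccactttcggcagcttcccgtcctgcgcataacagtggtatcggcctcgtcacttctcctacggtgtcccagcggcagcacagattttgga
Igf2 promoter 3: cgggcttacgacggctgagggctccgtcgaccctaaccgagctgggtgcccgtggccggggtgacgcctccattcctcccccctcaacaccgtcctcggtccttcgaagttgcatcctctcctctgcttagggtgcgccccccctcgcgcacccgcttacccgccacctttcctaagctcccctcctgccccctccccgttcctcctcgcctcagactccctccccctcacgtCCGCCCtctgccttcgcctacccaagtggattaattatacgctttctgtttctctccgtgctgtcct
Igf2 promoter 4: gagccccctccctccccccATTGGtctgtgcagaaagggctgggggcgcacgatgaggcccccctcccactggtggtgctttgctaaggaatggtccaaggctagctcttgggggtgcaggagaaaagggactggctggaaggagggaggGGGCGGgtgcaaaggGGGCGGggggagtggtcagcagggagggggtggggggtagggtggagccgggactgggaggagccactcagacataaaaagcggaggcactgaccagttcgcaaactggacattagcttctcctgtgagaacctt
Promoters 1 and 2 held neither motif, promoter 3 held 1 GC box and promoter 4 held 2 GC boxes and 1 CCAAT box. Of all 32851 RefSeq promoters, 35.7% held at least 1 GC box and 19.5% at least 2. The ratio of observed to expected CpG was 0.10 in promoter 1, 0.79 in promoter 2, 0.90 in promoter 3 and 0.25 in promoter 4. Promoter 1 was thus the poorest in CpG, promoter 4 was CpG-poor as well, and promoters 2 and 3 were of the CpG-rich kind.

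The Kcnq1ot1 promoter, at chr7:143296498-143296797 on the minus strand, is shown for its 3 CCAAT boxes in capitals, a number reached by 3.37% of RefSeq promoters.
Kcnq1ot1 promoter: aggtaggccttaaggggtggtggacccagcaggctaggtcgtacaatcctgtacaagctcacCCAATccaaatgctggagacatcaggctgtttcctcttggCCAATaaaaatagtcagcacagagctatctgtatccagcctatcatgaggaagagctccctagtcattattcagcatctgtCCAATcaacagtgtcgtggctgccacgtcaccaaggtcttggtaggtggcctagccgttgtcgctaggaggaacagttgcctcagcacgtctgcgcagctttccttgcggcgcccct

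The H19 control region held 2 accessible regions, and 5 stretches of it are shown on the plus strand with 30 bases on each side of every match to GGNGGCAG, the core of the CTCF motif, searched on both strands. All 5 matches read on the minus strand, the strand of H19, so the capitals are the reverse complement of the core. They lie at chr7:142580279-142580346 and chr7:142580734-142580801 in H19 region 2, and at chr7:142581760-142581827, chr7:142581879-142581946 and chr7:142582004-142582071 in H19 region 3, between 2.17 and 3.89 kb upstream of the H19 start.
H19 region 2 match 1: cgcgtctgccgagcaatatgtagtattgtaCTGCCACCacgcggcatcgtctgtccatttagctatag
H19 region 2 match 2: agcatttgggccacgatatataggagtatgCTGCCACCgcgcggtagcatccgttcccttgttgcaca
H19 region 3 match 1: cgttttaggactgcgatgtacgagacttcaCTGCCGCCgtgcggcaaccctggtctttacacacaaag
H19 region 3 match 2: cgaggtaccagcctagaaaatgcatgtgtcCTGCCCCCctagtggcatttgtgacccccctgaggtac
H19 region 3 match 3: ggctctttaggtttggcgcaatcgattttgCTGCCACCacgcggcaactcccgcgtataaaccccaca
At least 2 matches were found in 6.31% of 43184 shared regions of the length of H19 region 2, and at least 3 in 1.34% of 51356 shared regions of the length of H19 region 3. A match is a match of letters and not a measured binding site.

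Of the 6 windows, Igf2 and H19 were the ones with higher accessibility in Enl-T1, and the receptors were slightly lower. In all nuclei Igf2 had 79.4 CPM (interval 77.1 to 81.6) in Enl-WT and 95.0 CPM (92.3 to 97.6) in Enl-T1, which is 1.20-fold or 0.26 (0.20 to 0.32) on the log2 scale. H19 had 36.0 CPM (34.5 to 37.5) and 41.3 CPM (39.6 to 43.1), a log2 ratio of 0.20 (0.11 to 0.29). These differences were larger than counting error, and they were small, since neither reached the 1.5-fold that was used as the mark of a called difference. Cdkn1c had 89.6 and 89.1 CPM (log2 ratio -0.01, interval -0.07 to 0.05) and Kcnq1ot1 had 47.3 and 46.2 CPM (-0.03, -0.11 to 0.05), so neither differed beyond counting error. Igf1r had 260.4 and 249.8 CPM (-0.06, -0.09 to -0.03), and Igf2r had 115.7 and 108.0 CPM (-0.10, -0.15 to -0.05). These small receptor ratios changed direction under alternatives, Igf2r to 0.045 where peaks had to overlap by 80% both ways and Igf1r to 0.0053 by the shares of thinned nuclei. None of the 6 windows was past 1.5-fold in all nuclei, where 3.14% of 32629 gene windows were higher in Enl-T1 and 1.74% were lower by that measure.

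Per kb of peak, the scale on which different genes can be set side by side, the 6 windows were alike in Enl-WT all nuclei. The levels were 10.9 CPM per kb for Igf2, 11.7 for H19, 13.9 for Cdkn1c, 12.1 for Kcnq1ot1, 10.9 for Igf1r and 9.91 for Igf2r. In Enl-T1 they were 15.0, 15.3, 16.8, 12.9, 11.9 and 10.4 CPM per kb in the same order. The shared peaks of Enl-T1 were narrower as a whole, covering 103.2 Mb against 114.8 Mb, so these levels serve to compare genes within a library and not libraries. Cdkn1c was the most accessible and Igf2r the least accessible of the 6 on this scale in both libraries.

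The share of nuclei with at least 1 count in a window depended on depth. As deposited, 37.0% of Enl-WT nuclei and 31.1% of Enl-T1 nuclei had a count in the Igf2 window, an order opposite to that of the CPM. After each nucleus was thinned to 2000 counts the shares were 11.7% (11.0% to 12.3%) and 14.4% (13.8% to 15.1%). For H19 the unthinned shares were 19.8% and 15.7%, and the thinned shares were 5.37% (4.93% to 5.85%) and 6.81% (6.38% to 7.27%). At equal depth both genes thus had the larger share in Enl-T1. For Cdkn1c the thinned shares were 13.5% and 13.4%, with overlapping intervals.

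In progenitor-like nuclei, a class in which Wt1-driven Cre acts, the difference at H19 was the largest of the 6 windows. H19 had 29.7 CPM (26.9 to 32.8) in Enl-WT and 40.4 CPM (37.7 to 43.3) in Enl-T1, which is 1.36-fold or 0.44 (0.27 to 0.62) on the log2 scale. Igf2 had 76.8 CPM (72.2 to 81.5) and 94.3 CPM (90.1 to 98.6), a log2 ratio of 0.30 (0.19 to 0.41). Cdkn1c had 76.2 and 81.1 CPM (0.09, -0.02 to 0.20), Kcnq1ot1 had 44.9 and 41.3 CPM (-0.12, -0.27 to 0.03) and Igf1r had 237.5 and 232.2 CPM (-0.03, -0.10 to 0.03), all within counting error. Igf2r, the receptor that clears the ligand, had 105.3 CPM (99.9 to 110.9) and 93.4 CPM (89.2 to 97.7), a log2 ratio of -0.17 (-0.27 to -0.07). No member window was past 1.5-fold here either, beside 3.89% of 29659 gene windows higher and 4.21% lower.

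The clusters inside the class gave the same order for H19 and Igf2. H19 had 41.7, 36.8 and 47.1 CPM in the Enl-T1 nuclei of clusters 0, 2 and 19, and 28.0 and 31.1 CPM in the Enl-WT nuclei of clusters 5 and 14. Igf2 had 94.5, 94.0 and 99.5 CPM in the former and 69.2 and 86.9 CPM in the latter. The intervals of Igf2 in cluster 14 (78.8 to 95.6) overlapped those of all 3 Enl-T1 clusters, whereas those of cluster 5 (63.6 to 75.2) did not. For H19 the interval of cluster 14 (26.3 to 36.5) overlapped that of cluster 2 (32.2 to 41.8). No cluster of the class held 200 nuclei of each library, so the libraries could not be compared within 1 cluster of it.

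**Figure D1:**
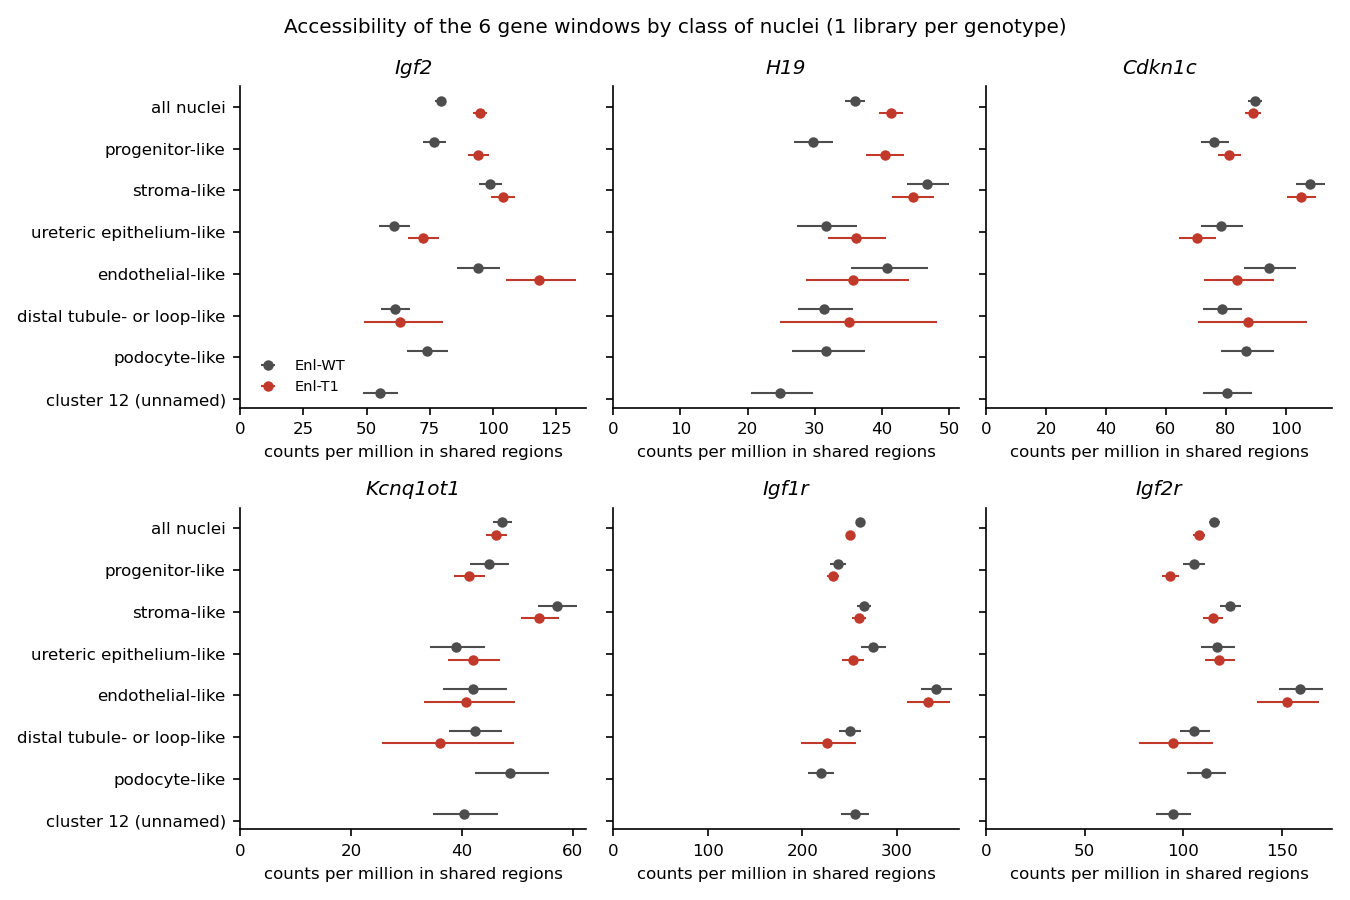
Accessibility of the 6 gene windows, in CPM (x axis), for all nuclei and each class of nuclei (y axis). Points are single libraries, grey for Enl-WT and red for Enl-T1, and bars are 95% counting intervals. In progenitor-like nuclei the Enl-T1 points of Igf2 (94.3) and H19 (40.4) lie to the right of the Enl-WT points (76.8 and 29.7).

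The other classes differed from the progenitor-like one mostly at H19. In stroma-like nuclei Igf2 had 98.9 and 104.0 CPM (log2 ratio 0.07, -0.02 to 0.17) and H19 had 46.8 and 44.6 CPM (-0.07, -0.21 to 0.07), so neither differed beyond counting error. In ureteric epithelium-like nuclei Igf2 had 60.8 and 72.3 CPM (0.25, 0.06 to 0.44) and H19 had 31.6 and 36.1 CPM (0.19, -0.08 to 0.46). In endothelial-like nuclei Igf2 had 94.1 and 118.3 CPM (0.33, 0.11 to 0.55) while H19 had 40.8 and 35.8 CPM (-0.19, -0.57 to 0.18). The Igf2 ratio was therefore above 0 in every class that held 200 nuclei per library, the smallest being 0.05 (-0.34 to 0.42) in distal tubule- or loop-like nuclei, and the H19 ratio was not. With regions kept only where the peaks overlap by 80% both ways, the Igf2 ratio of ureteric epithelium-like nuclei turned to -0.073. The interval of the H19 ratio in progenitor-like nuclei (0.27 to 0.62) did not overlap that in stroma-like nuclei (-0.21 to 0.07), and the difference between classes was not tested across samples. The paper describes Wt1-driven Cre as restricted to the nephron and stroma, which leaves out ureteric epithelium- and endothelial-like nuclei. The Igf2 ratios of these 2 classes (0.25 and 0.33) were near that of progenitor-like nuclei (0.30), and that of stroma-like nuclei was 0.07. Whether the Igf2 difference follows Cre was not tested.

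Clusters that held at least 200 nuclei of each library allowed both to be read within the same cluster. For Igf2 the Enl-WT and Enl-T1 levels were 94.2 and 118.0 CPM in endothelial-like cluster 7, 58.2 and 67.7 CPM in ureteric cluster 3, and 57.1 and 77.6 CPM in ureteric cluster 10. Of the 5 stroma-like clusters of this kind, 2 had the higher Igf2 level in Enl-T1 (75.4 and 92.9 CPM in cluster 1, 101.0 and 124.4 CPM in cluster 11) and 3 had the lower one, as in cluster 9 with 125.2 and 112.1 CPM. For H19 the largest difference within a cluster was in cluster 10, with 21.8 CPM (15.4 to 29.8) in Enl-WT and 35.7 CPM (29.3 to 43.0) in Enl-T1.

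The receptors and Cdkn1c showed small ratios in the other classes. Igf2r had 124.0 and 115.2 CPM in stroma-like nuclei (log2 ratio -0.11, -0.19 to -0.02), 117.4 and 118.4 CPM in ureteric epithelium-like nuclei (0.01, -0.13 to 0.16) and 159.3 and 152.7 CPM in endothelial-like nuclei (-0.06, -0.24 to 0.12). Igf1r had 274.8 and 253.2 CPM in ureteric epithelium-like nuclei (-0.12, -0.21 to -0.02), and its intervals held 0 in the stroma-like, endothelial-like and distal tubule- or loop-like classes. The intervals of Cdkn1c and Kcnq1ot1 held 0 in every class. The 36 ratios plotted by class lay between -0.23 and 0.44 on the log2 scale.

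**Figure D2:**
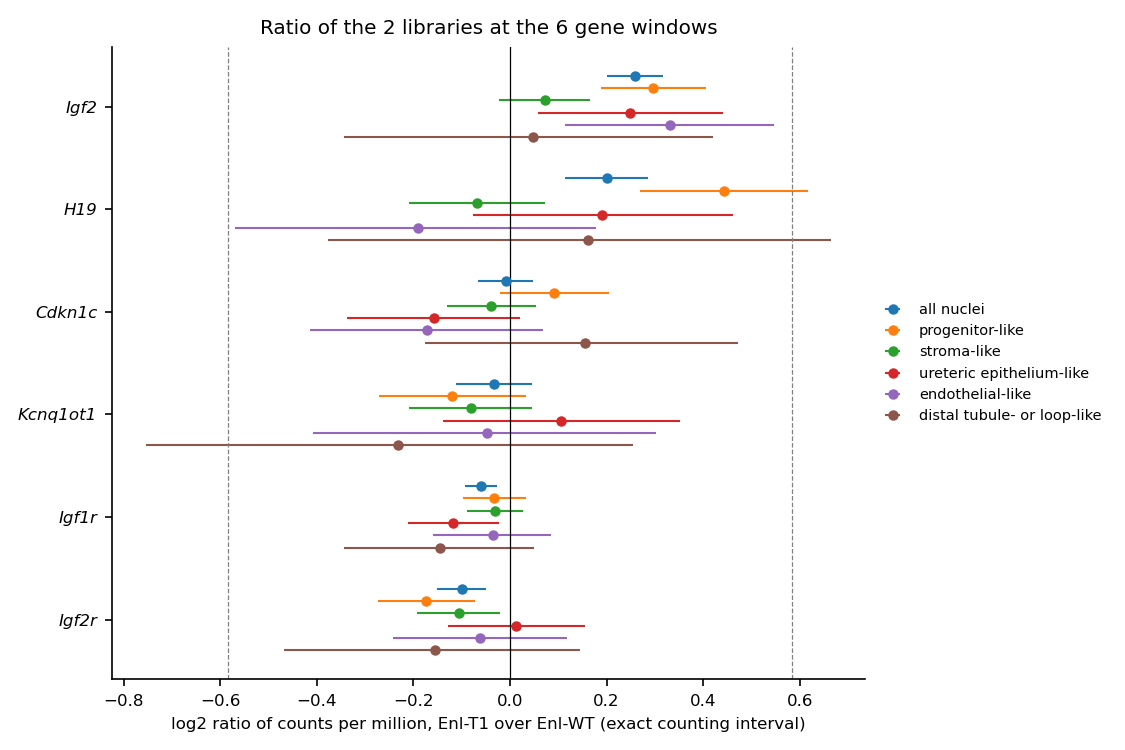
Log2 ratio of CPM, Enl-T1 over Enl-WT (x axis), of the 6 gene windows (y axis) in all nuclei and in 5 classes, with 95% counting intervals. Dashed lines mark 1.5-fold. All 36 points lie between the dashed lines, and the point farthest to the right is H19 in progenitor-like nuclei (0.44).

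The level of each gene also depended on the class within a library, and the windows of the members had been left out of the clustering. Among classes with at least 200 nuclei, Igf2, H19, Cdkn1c and Kcnq1ot1 were all highest in stroma-like nuclei of Enl-WT, with 98.9, 46.8, 108.1 and 57.1 CPM. For Igf2 and H19 the intervals of the next class, endothelial-like nuclei with 94.1 and 40.8 CPM, overlapped those of the stroma-like nuclei, and for Cdkn1c (next 94.4 CPM) they did not. For Kcnq1ot1 the next class was podocyte-like nuclei with 48.7 CPM (42.4 to 55.7), which overlapped the stroma-like interval (53.7 to 60.7). Of the classes with at least 200 nuclei, Igf2 was lowest in cluster 12 with 55.2 CPM and in ureteric epithelium-like nuclei with 60.8 CPM, which did not differ beyond counting error. The immune-like nuclei, 101 in Enl-WT and 164 in Enl-T1, had 22.2 CPM (10.7 to 40.9) and 50.5 CPM of Igf2. Their Cdkn1c level in Enl-WT was 108.9 CPM (80.6 to 144.0), which overlapped that of the stroma-like nuclei. In Enl-T1 the order of Igf2 was endothelial-like (118.3 CPM), stroma-like (104.0), progenitor-like (94.3), ureteric epithelium-like (72.3) and distal tubule- or loop-like (63.2), with overlap between the first pair and between the last pair. H19 in Enl-WT progenitor-like nuclei had rank 6 of 7 classes, and in Enl-T1 these nuclei had rank 2 of 5 with 40.4 CPM, and its interval (37.7 to 43.3) overlapped that of the stroma-like nuclei (44.6 CPM, 41.6 to 47.8). The H19 intervals of these nuclei also overlapped those of ranks 3 to 5 in each library. The sets of ranked classes differ too, so the change of rank is not a result by itself. Igf1r and Igf2r were highest in endothelial-like nuclei in both libraries, with 341.0 and 332.6 CPM for Igf1r and 159.3 and 152.7 CPM for Igf2r, and their intervals stood apart from those of the next class.

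The regions within the windows showed where the counts came from. The dominant region of Igf2 was region 2, chr7:142657229-142659958, exonic and intronic sequence of Igf2 that holds promoters 3 and 4 and starts of the antisense gene Igf2os, which cannot be told apart from Igf2 in these data. It had 46.8 CPM in Enl-WT and 57.8 CPM in Enl-T1 in all nuclei (log2 ratio 0.31), and 43.8 and 55.3 CPM in progenitor-like nuclei (0.34, 0.19 to 0.48). Its covered length was nearly equal, 2632 and 2688 bases. Region 1, chr7:142655165-142656609, which lies 10.9 kb into the gene over an exon and a further start, had 16.0 and 16.3 CPM from peaks of 1445 and 817 bases. By CPM, the higher Igf2 level of Enl-T1 thus lay mainly in region 2, the region of the CpG-rich promoter 3 and of promoter 4. The Enl-T1 peak of region 1 was much the narrower one, so near-equal CPM there does not show equal levels per kb of peak.

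The remaining promoters of Igf2 were each accessible in only 1 peak set. Region 3, chr7:142660525-142661473, which overlaps the CpG-rich promoter 2, was called in Enl-T1 alone, with 9.71 CPM in all nuclei and 11.0 CPM in progenitor-like nuclei. Region 4, chr7:142663843-142664515, an intronic region, was also called in Enl-T1 alone, with 7.16 CPM. Region 5, chr7:142666536-142667546, which holds the CpG-poor promoter 1 at the most upstream start, was called in Enl-WT alone, with 5.89 CPM. Counts exist only inside called peaks, so a region without a peak has no value in that library, and this is not a value of 0.

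Region 5 was accessible mainly in 1 class. In Enl-WT endothelial-like nuclei it had 38.3 CPM (33.1 to 44.2), with at least 1 count in 20.2% (17.4% to 23.2%) of 773 nuclei. Next came stroma-like nuclei with 5.11 CPM (4.13 to 6.27) and cluster 12 with 4.65 CPM, followed by progenitor-like nuclei with 2.15 CPM and ureteric epithelium-like nuclei with 1.59 CPM. The lowest level was in podocyte-like nuclei, 0.68 CPM, with a count in 0.71% of nuclei, and the median depths of these 2 classes were close, 14838 and 14353 counts. The endothelial-like level was 7.49 times that of the next class. The remaining Igf2 regions were less restricted, and region 2 was highest in stroma-like nuclei of Enl-WT with 62.1 CPM and lowest in distal tubule- or loop-like nuclei with 33.2 CPM.

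Upstream of Igf2, 3 shared regions lay between 3.32 and 9.02 kb from the most upstream start. In all nuclei region 6 had 3.84 and 4.54 CPM in Enl-WT and Enl-T1 (log2 ratio 0.24, -0.02 to 0.51), which is within counting error. Region 7 had 5.27 and 6.86 CPM (0.38, 0.16 to 0.60) and region 8 had 7.43 and 9.45 CPM (0.35, 0.16 to 0.53). None of the 3 was past 1.5-fold, and the Enl-T1 peaks were the narrower ones. In progenitor-like nuclei region 7 had 4.74 and 6.87 CPM (log2 ratio 0.53, 0.10 to 0.98), while region 8 had 9.59 and 10.1 CPM (0.07, -0.26 to 0.40).

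The H19 window held 3 regions, all shared. Region 1, chr7:142577524-142578700, covers the H19 start and first exon, and the small gene Gm27786 lies in it too. It had 16.8 and 19.3 CPM in all nuclei and 13.6 and 18.8 CPM in progenitor-like nuclei (log2 ratio 0.46, 0.21 to 0.72), with peaks of 1177 and 902 bases. Region 2, chr7:142580021-142580930, in the control region and 2.33 kb upstream of the start, had 8.46 and 12.8 CPM in progenitor-like nuclei (0.60, 0.28 to 0.93), just past 1.5-fold, with peaks of 905 and 897 bases. Region 3, chr7:142581511-142582526, the part of the control region with 3 CTCF core matches, had 7.66 and 8.82 CPM there (0.20, -0.15 to 0.57). Of the control region, the region nearer the gene was thus past the mark and the farther one was within counting error. The intervals of the 2 ratios overlapped, so a difference between the 2 parts was not shown. Region 2 was 1 of the 4 member regions higher by 1.5-fold among 44 judged in this class (9.09%), beside 11.2% of all shared regions.

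In all nuclei region 2 had the smaller ratio, with 11.8 and 13.1 CPM (log2 ratio 0.15, -0.0027 to 0.30), which is within counting error. Region 3 had 7.30 and 8.92 CPM there (0.29, 0.10 to 0.48), which is past counting error and short of 1.5-fold.

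Kcnq1ot1 and Cdkn1c, the gene it silences in cis, had nearly equal levels at their starts in both libraries. Kcnq1ot1 region 5, chr7:143296187-143297367, holds the promoter printed above and the control region. It had 32.6 and 31.9 CPM in all nuclei and 29.7 and 28.8 CPM in progenitor-like nuclei (log2 ratio -0.04, -0.23 to 0.15). It carried most of the counts of the window, and the remaining 6 regions had between 2.62 and 5.73 CPM in all nuclei. Kcnq1ot1 region 7, chr7:143305505-143306402, an intronic region of Kcnq1 that lies 9.40 kb upstream, had 5.33 and 3.39 CPM in progenitor-like nuclei (-0.65, -1.15 to -0.16), with peaks of 849 and 898 bases. Because the gene lies inside Kcnq1, counts of its window belong to both genes.

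Cdkn1c had 6 regions, all shared. The start region, region 2, chr7:143460462-143461588, had 38.3 and 36.5 CPM in all nuclei and 32.5 and 33.3 CPM in progenitor-like nuclei (log2 ratio 0.04, -0.14 to 0.21). Region 1, over exons and a further start of Cdkn1c and of the overlapping Gm44732, had 9.63 and 9.69 CPM in progenitor-like nuclei. Of the 4 upstream regions, region 5, chr7:143466059-143466938 and 5.45 kb upstream, had the highest ratio in progenitor-like nuclei, with 6.16 and 9.12 CPM (0.56, 0.19 to 0.95), which is just short of 1.5-fold. Cdkn1c region 4, 4.03 kb upstream, was highest in stroma-like nuclei in both libraries, with 17.1 and 18.0 CPM, against 10.8 and 10.9 CPM in progenitor-like nuclei.

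The receptor genes are long, and most of their regions lie in introns. Igf1r, at chr7:67952827-68233668 on the plus strand, had 45 regions, of which 22 were shared, 20 were called in Enl-WT alone and 3 in Enl-T1 alone. Its start region, region 2, chr7:67950482-67952554, holds the RefSeq start and ends just before the GENCODE start. It had 80.9 and 83.0 CPM in all nuclei and 75.3 and 77.9 CPM in progenitor-like nuclei (log2 ratio 0.05, -0.07 to 0.16). Region 33, 176 kb into the gene, was the next, with 30.3 and 31.8 CPM in all nuclei. A further annotated Igf1r start lay in region 42, called in Enl-WT alone at 2.39 CPM.

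In all nuclei and in progenitor-like nuclei the Igf1r regions past 1.5-fold were intronic and of low level. In progenitor-like nuclei region 30, chr7:68117656-68118747, had 2.81 and 5.56 CPM (log2 ratio 0.99, 0.45 to 1.55) with peaks of 1047 and 910 bases. Region 24, chr7:68093538-68095355, had 9.96 and 5.14 CPM (-0.95, -1.34 to -0.58), but its peak covered 1772 bases in Enl-WT and 910 in Enl-T1. In all nuclei regions 13, 24 and 29 were lower in Enl-T1, with log2 ratios of -0.80, -0.75 and -0.72, and all 3 had the wider peak in Enl-WT. Per kb of peak, an alternative chosen after the data were seen, region 24 had a log2 ratio of 0.06 in all nuclei, so that its direction turned. Here and below, log2 ratios per kb of peak had the library-wide difference in covered length (114.8 against 103.2 Mb) taken off.

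Igf2r, at chr17:12682406-12769664 on the minus strand, had 15 regions, of which 11 were shared. Its start region, region 14, chr17:12769051-12770179, had 25.0 and 22.4 CPM in all nuclei and 23.5 and 23.1 CPM in progenitor-like nuclei (log2 ratio -0.03, -0.23 to 0.18). Region 8, chr17:12740916-12742262, which holds the Airn start and the control region, had 19.6 and 15.1 CPM in all nuclei (-0.37) with peaks of 1321 and 853 bases, and 16.2 and 14.6 CPM in progenitor-like nuclei (-0.15, -0.41 to 0.11). The small deficit of the Igf2r window in Enl-T1 therefore did not lie at its start in progenitor-like nuclei.

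The largest deficits lay in introns downstream of the start. Region 13, chr17:12759302-12760427 and 9.80 kb into the gene, had 10.9 and 4.40 CPM in progenitor-like nuclei (log2 ratio -1.31, -1.70 to -0.92), the lowest ratio of all member regions tested there, with peaks of 1126 and 802 bases. Region 7, chr17:12734010-12734911, had 10.6 and 6.28 CPM (-0.75, -1.11 to -0.40), and its peaks were of nearly equal width, 872 and 885 bases. On the other side, region 2, chr17:12689297-12690333, over exons toward the end of the gene, had 2.63 and 5.09 CPM (0.95, 0.39 to 1.54), with peaks of 991 and 929 bases. Region 10, chr17:12749700-12750771, had 4.41 and 6.65 CPM (0.59, 0.14 to 1.05). It was just past 1.5-fold, and its peak was the wider one in Enl-T1, 952 bases in Enl-WT and 1072 in Enl-T1. By CPM, Igf2r thus held regions past 1.5-fold in both directions, 2 higher and 2 lower.

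**Figure D3:**
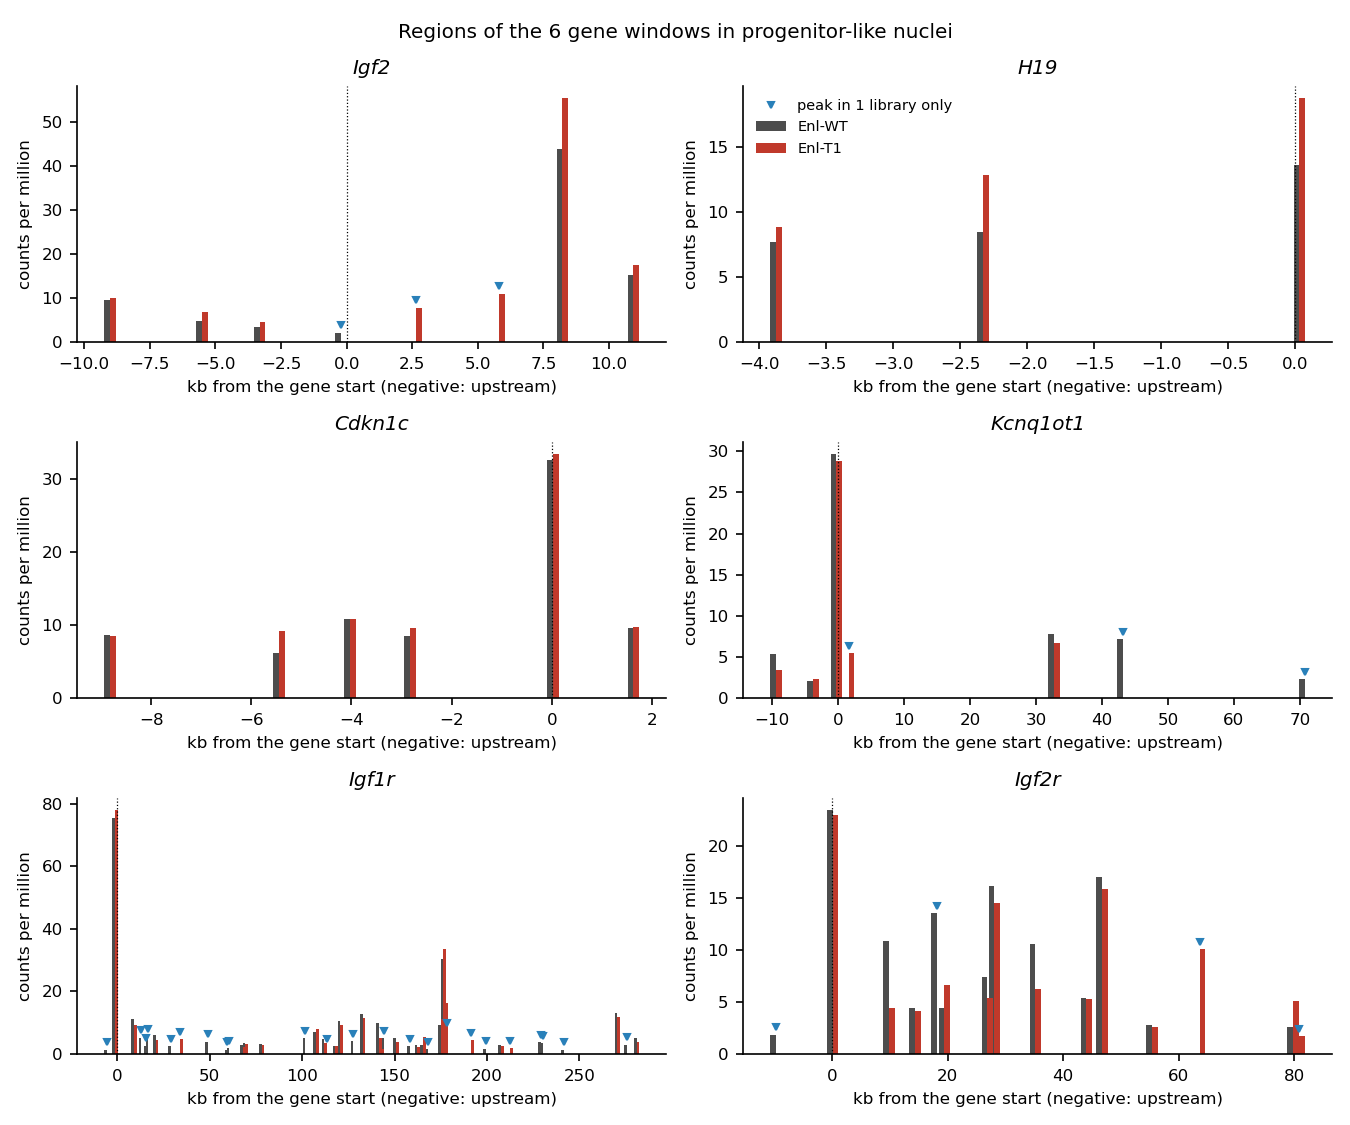
CPM in progenitor-like nuclei (y axis) of each region of the 6 windows against its distance from the gene start in kb (x axis, upstream negative), grey bars for Enl-WT and red bars for Enl-T1. Blue triangles mark regions with a peak in 1 library only, which have 1 bar. The red bars are the taller ones at all 3 H19 regions, and the grey bar is taller 9.80 kb into Igf2r (10.9 against 4.40).

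Several regions within the receptor genes were high mainly in 1 or 2 classes, and this was seen in both libraries. Igf2r region 6, chr17:12724762-12726495, had 49.4 CPM in Enl-WT and 51.5 CPM in Enl-T1 endothelial-like nuclei and 39.7 and 35.5 CPM in stroma-like nuclei, against 5.36 and 5.34 CPM in progenitor-like nuclei. Igf2r region 10 had 34.0 and 33.6 CPM in ureteric epithelium-like nuclei, against 3.37 and 3.75 CPM in stroma-like nuclei. Igf2r region 5, 46.8 kb into the gene, was highest in progenitor-like nuclei with 17.1 and 15.9 CPM, against 3.81 and 5.55 CPM in stroma-like nuclei. Each of these 3 had the same leading class in both libraries, with an interval apart from that of the next class. They were singled out after their values were seen.

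Further regions of this kind lay in Igf1r. Igf1r region 16, called only in Enl-WT, had 22.0 CPM in podocyte-like nuclei and 7.42 CPM in the next class, and Igf1r region 22, also called in Enl-WT alone, had 25.9 CPM in cluster 12 and 14.1 CPM in distal tubule- or loop-like nuclei. Igf1r region 15, called in both libraries, was highest in endothelial-like nuclei with 12.8 CPM in Enl-WT and 14.1 CPM in Enl-T1. Of the 76 regions with an Enl-WT peak, 20 (26.3%) had a leading class whose interval stood apart from the next, beside 32.6% of all regions with a peak in Enl-WT. Endothelial-like nuclei led 12 of them (15.8% of the 76), beside 6.86% of all regions. Of the 59 regions with an Enl-T1 peak 11 (18.6%) had such a leading class, beside 26.1% of all, and endothelial-like nuclei led 4 (6.78%), beside 4.57% of all. The regions outside the member windows had been used to form the classes, so these shares are a description. By the median, regions holding GENCODE starts of the members or of genes within them varied less across classes. Igf1r region 2, which ends just before the GENCODE start, counted among the remaining regions. The highest over the lowest class was 1.90-fold in Enl-WT and 1.68-fold in Enl-T1, against 4.51-fold and 3.16-fold for the remaining regions. The widest spread in Enl-WT was nonetheless at a start, 56.0-fold at Igf2 region 5, against at most 16.9-fold for the remaining regions. Spreads of regions with few counts also carry more counting error.

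The counts of member regions were set beside the shares over all regions. Of the 84 joined regions 25 (29.8%) were called in Enl-WT alone and 8 (9.52%) in Enl-T1 alone, beside 27.2% and 9.93% of all 176056 joined regions. With a minimum of 200 counts over both libraries, 51 member regions could be judged in all nuclei, of which 0 were higher in Enl-T1 by 1.5-fold (9.34% of all shared regions were) and 3 were lower (5.20%). In progenitor-like nuclei 44 could be judged, with 4 higher (11.2%) and 4 lower (12.1%). In stroma-like nuclei 48 could be judged, with 1 higher (7.27%) and 1 lower (5.84%). In ureteric epithelium-like nuclei 29 could be judged, with 1 higher (3.81%) and 2 lower (2.61%), in endothelial-like nuclei 19, with 0 higher (1.42%) and 2 lower (5.11%), and in distal tubule- or loop-like nuclei 13, with 0 higher (5.05%) and 2 lower (14.0%). The 2 lower regions were 6.90% of those judged in ureteric epithelium-like nuclei, 10.5% in endothelial-like nuclei and 15.4% in distal tubule- or loop-like nuclei. Each of these shares rests on 2 regions, and the last was close to the 14.0% of all regions, so they are not read as a trait of the members. The counts in all nuclei and in progenitor- and stroma-like nuclei lay below the share of all regions or close to it. The medians of the member regions were -0.04 in all nuclei and -0.0072 in progenitor-like nuclei, beside 0.03 and 0.0066 over all regions.

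The regions behind the small counts outside the progenitor-like class were looked up after their values were seen. In stroma-like nuclei they were Igf1r region 23, with 10.9 CPM in Enl-WT and 16.6 CPM in Enl-T1 (log2 ratio 0.60), and Igf1r region 29, with 5.75 and 3.58 CPM (-0.68). In ureteric epithelium-like nuclei Igf2 region 1 was higher, with 8.34 and 13.5 CPM (0.69), and Igf1r regions 13 and 23 were lower, with 11.0 and 6.87 CPM (-0.68) and with 9.38 and 6.15 CPM (-0.61). Region 23 of Igf1r thus had opposite directions in these 2 classes. In endothelial-like nuclei Igf1r region 7 had 28.1 and 17.4 CPM (-0.69, -1.22 to -0.19) and Igf1r region 43 had 25.5 and 16.6 CPM (-0.62, -1.17 to -0.10). In distal tubule- or loop-like nuclei Igf2r region 8, the region of the Airn start, had 20.3 and 10.3 CPM (-0.98), and Igf2r region 10 had 19.6 and 9.83 CPM (-0.99).

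The 51 shared member regions had a median GC content of 50.5% and a CpG ratio of 0.28, beside 47.4% and 0.24 in all shared regions. The Enl-WT peak was the wider one in 39 of the 51 and the Enl-T1 peak in 12. The median log2 ratio of widths was -0.12, close to the -0.10 of all shared regions. Across these 51 regions the ratio of widths and the ratio of levels had a Pearson r of 0.41 in all nuclei and 0.21 in progenitor-like nuclei, a description across regions of the same pair of libraries.

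**Figure D4:**
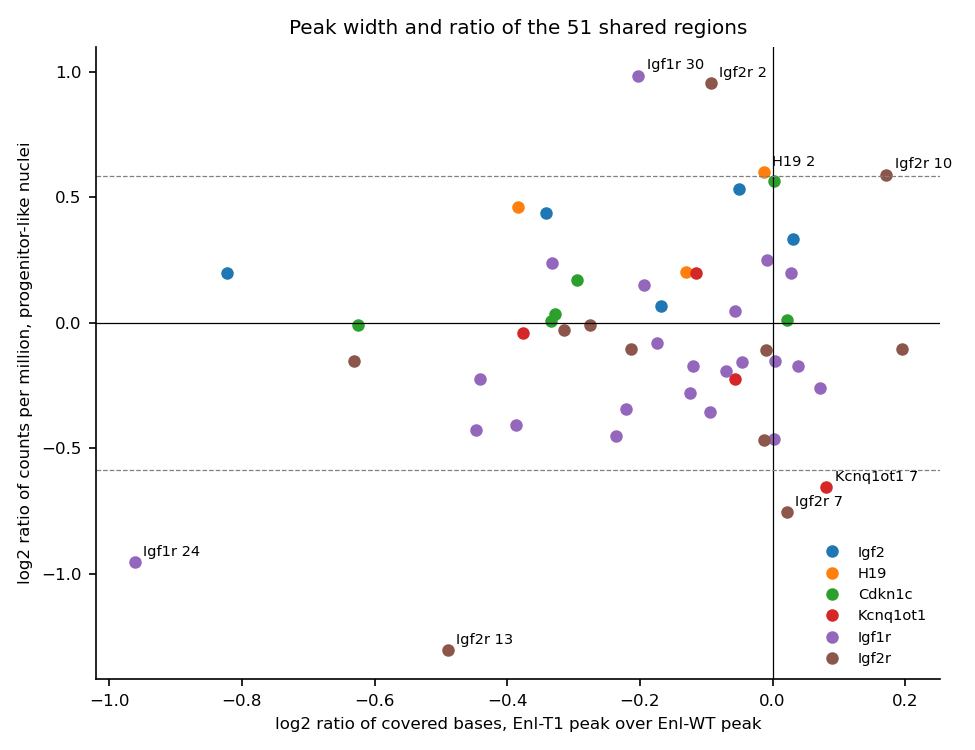
Log2 ratio of CPM in progenitor-like nuclei (y axis) against the log2 ratio of peak widths (x axis), both Enl-T1 over Enl-WT, for the 51 shared regions, coloured by gene. Named points are past 1.5-fold (dashed lines). Igf2r region 7 (-0.75) and H19 region 2 (0.60) lie near equal width, while Igf1r region 24 (-0.95) lies far to the left with peaks of 1772 and 910 bases.

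Genes of the same pathways, taken as lists, gave few windows past 1.5-fold. Of 12 imprinted genes on the same stretch of chromosome 7, 0 were higher and 1 was lower in progenitor-like nuclei (median log2 ratio -0.03). Of 29 imprinted genes elsewhere, 0 were higher and 1 was lower (0.02). Of 24 ligands, receptors, binding proteins and relays of the IGF pathway and of 6 cyclin-dependent kinase inhibitors, none was past the mark in either direction, with medians of -0.08 and 0.07. The median over all gene windows was 0.0090, so no list median stood more than 0.1 from it, and the background shares are those given above for gene windows. In all nuclei the same lists gave 1 lower window, again on chromosome 7.

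The gene below the mark on chromosome 7 was Phlda2, an imprinted growth-restraining gene of the Kcnq1ot1 domain and a neighbour of Cdkn1c. It had 9.30 CPM in Enl-WT and 3.73 CPM in Enl-T1 in progenitor-like nuclei (log2 ratio -1.32, -1.75 to -0.90), and 9.61 and 5.00 CPM in all nuclei. Its window held 1 shared region, whose peak spanned 1771 bases in Enl-WT and 797 in Enl-T1. Per kb of peak, an alternative added after the data were seen, its log2 ratio was 0.06 (-0.16 to 0.27) in all nuclei, so that its direction turned, and -0.32 (-0.75 to 0.10) in progenitor-like nuclei, within counting error. The gene of the second list was Dcn, which encodes the matrix proteoglycan decorin, with 22.7 and 13.6 CPM in progenitor-like nuclei (-0.73, -0.97 to -0.50) but 23.7 and 26.4 CPM in all nuclei. Dcn was among the leading genes of stroma-like clusters 6 and 11, and the summed stroma markers were also lower in Enl-T1 progenitor-like nuclei, 346 against 394 CPM. Whether the Dcn ratio is linked to the stroma markers was not tested.

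The other ligand of the IGF1 receptor was higher in Enl-T1, as Igf2 was. Igf1 had 62.0 and 85.0 CPM in progenitor-like nuclei (log2 ratio 0.45, 0.33 to 0.57) and 48.0 and 60.1 CPM in all nuclei (0.32, 0.25 to 0.40). The insulin receptor Insr, a further receptor of IGF2, had 81.3 and 87.5 CPM in progenitor-like nuclei (0.11), at the edge of counting error. Kcnq1, the potassium channel gene that shares regions with Kcnq1ot1, had 240.4 and 205.1 CPM (-0.23, -0.30 to -0.16), and Airn, which shares regions with Igf2r, had 144.5 and 130.4 CPM (-0.15, -0.23 to -0.06). Ascl2, a transcription factor gene of the same imprinted domain, had 15.7 and 12.9 CPM (-0.28, -0.55 to -0.01; per kb of peak 0.15), and Cdkn1b, which encodes the related inhibitor p27, had 54.3 and 57.3 CPM (0.08, -0.06 to 0.21).

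**Figure D5:**
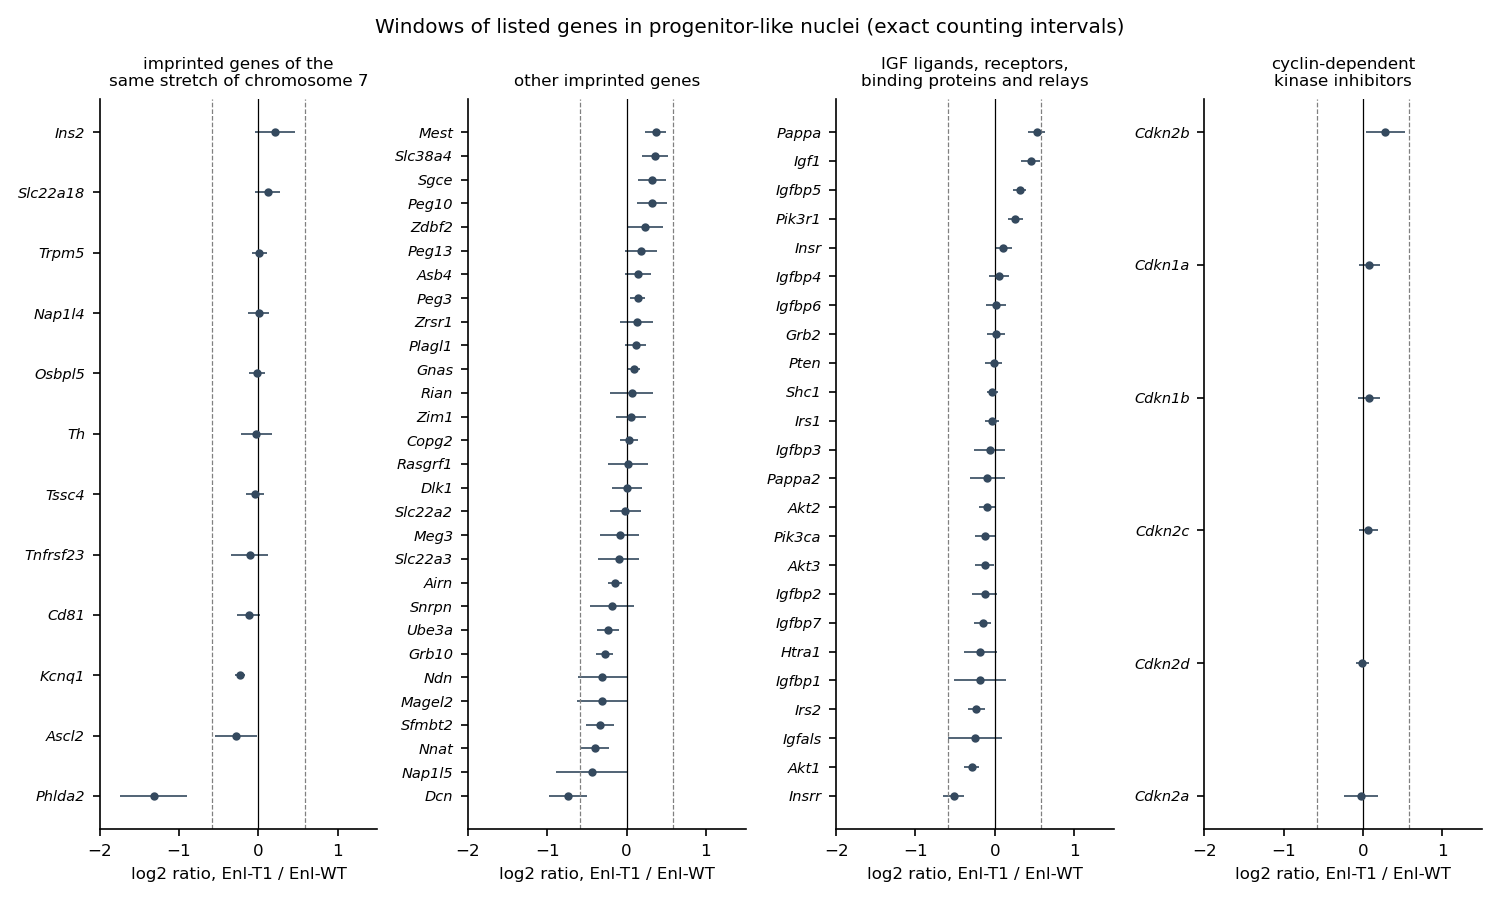
Log2 ratio of CPM, Enl-T1 over Enl-WT (x axis), in progenitor-like nuclei for the genes of the 4 lists (y axis), with 95% counting intervals and dashed lines at 1.5-fold. Phlda2 (-1.32) and Dcn (-0.73) are the points beyond the dashed lines.

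Genes whose windows followed the members most closely were sought over 12 pairs of class and library with at least 200 nuclei, among about 19330 genes of at least 20 CPM on average. The pairs share libraries and depth, so the correlations of log2(CPM + 1) describe these pairs only. Igf2 was followed most closely by Dph6 (Pearson r 0.967), Oit3 (0.961) and Gm29328 (0.946). H19 was followed by Ccnd2, which encodes cyclin D2 (0.930), 9330179D12Rik (0.920) and 4933417E11Rik (0.903). Cdkn1c was followed by Fnip1 (0.937), 4930581F22Rik (0.931) and Cks1b (0.930), and Kcnq1ot1 by Zfat (0.941) and by Gm23363 and Mir199b, which share 1 window (0.941). Igf1r was followed by Dhrs11 (0.974), Iqsec2 (0.970) and Spry4 (0.970). Igf2r was followed by Eng, which encodes the endothelial receptor endoglin (0.980), Gfod1 (0.978) and Egln3 (0.971).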

How the data were processed

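The deposited files were, for each of 2 single-nucleus ATAC-seq libraries (Enl-WT and Enl-T1, 1 each), a peak list, barcodes and a matrix of counts. Per the submitters' processing notes the authors used Cell Ranger ATAC 2.1.0 and mm10, and the counts are whole numbers of Tn5 cut ends per peak and barcode, not normalized, with peaks called in each library. Values of 2 were the most common, so counts were divided by 2 before exact Poisson intervals or conditional binomial intervals of a ratio were taken. Shares have Clopper-Pearson intervals, and intervals cover counting error only.

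The 6 genes, the gene lists and the markers were chosen with earlier results of these data known. Barcodes with 2000 to 100000 counts were kept (98.4% of Enl-WT and 94.5% of Enl-T1), with 149 barcodes found in both libraries. Peaks that overlapped by at least 1 base were joined, and CPM is relative to counts in the 110706 shared regions. Nuclei were clustered on 110588 regions without the member windows (latent semantic components, 30 components, 15 neighbours, Leiden resolution 1), giving 30 clusters. Clusters were named "-like" from the marker lists, and the naming thresholds, and the counting of nephron progenitor and early nephron markers as 1 name, were set after the clusters were seen. Nuclei most like simulated doublets (730 and 1352) were kept, and their removal was an alternative. For alternatives that drop nuclei, class names were kept. Classes with fewer than 200 nuclei in a library were not compared.

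Named were all members and their regions with at least 200 counts past 1.5-fold in all nuclei or progenitor-like nuclei or at a start or control region, listed genes past 1.5-fold in progenitor-like nuclei plus Igf1, Insr, Kcnq1, Phlda2, Ascl2, Airn and Cdkn1b, and the 3 genes most correlated with each member. The class-specific regions, Cdkn1c regions 4 and 5, Igf1r regions 2 and 33, the regions past 1.5-fold in other classes and Igf2 regions 4 and 6 to 8 were described after their values were seen. No test between genotypes was run. The scripts were tested on simulated data. Tools were Python 3.11.15, numpy 2.4.6, scipy 1.17.1, pandas 2.3.3, scikit-learn 1.9.0, scanpy 1.11.5, leidenalg 0.10.2, pyfaidx 0.9.0.4 and matplotlib 3.10.9.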

Additional observations from a re-analysis of the deposited data

Results flagged for a closer look

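The ratio of Enl-T1 over Enl-WT took opposite signs in 2 classes of nuclei, each with an interval that left out 0, at 4 member regions, among shared member regions with at least 200 counts in a class. Igf2 region 1, over an exon and a start, had a log2 ratio of 0.69 in ureteric epithelium-like nuclei and -0.23 in stroma-like nuclei. H19 region 1, at the H19 start, had 0.46 in progenitor-like and 0.48 in ureteric epithelium-like nuclei and -0.22 in stroma-like nuclei. Igf1r region 23 had 0.60 in stroma-like nuclei and -0.61 in ureteric epithelium-like nuclei. Igf2r region 10 had 0.59 in progenitor-like nuclei and -0.99 in distal tubule- or loop-like nuclei, of which Enl-T1 held 238. The peak of Igf2r region 10 was the wider one in Enl-T1, 952 bases in Enl-WT and 1072 in Enl-T1. The Enl-T1 peak was the narrower one at Igf2 region 1 (1445 bases in Enl-WT and 817 in Enl-T1) and at H19 region 1 (1177 and 902). In stroma-like nuclei Igf2 region 1 had 18.5 and 15.7 CPM, and H19 region 1 had 23.7 and 20.3 CPM. At both, the width fell by a larger share than the CPM did. Their CPM per kb of peak was therefore higher in Enl-T1, before the library-wide difference in covered length is taken off. The negative signs of these 2 regions thus hold by CPM and not per kb of peak. With 1 library per genotype these differences were not tested.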

How the results depend on the processing

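No paired analysis was possible because each genotype has 1 library, and for the same reason no replicate could be left out. Keeping only regions whose peaks overlap by 80% both ways gave log2 ratios in all nuclei of 0.32 for Igf2, 0.070 for Cdkn1c, -0.11 for Igf1r and 0.045 for Igf2r, which reversed, and -0.33 for Kcnq1ot1 in progenitor-like nuclei. It also reversed Igf2r in stroma-like nuclei (0.12) and Igf2 in ureteric epithelium-like nuclei (-0.073), and left 0 lower member regions in all nuclei and 2 higher and 2 lower in progenitor-like nuclei. Shares of thinned nuclei gave 0.34 for H19, 0.13 for Kcnq1ot1 and 0.0053 for Igf1r, which reversed. A window of 2 kb upstream gave -0.075 for Cdkn1c. Ratios per kb of peak, chosen after seeing the data, had the library-wide difference in covered length (114.8 Mb in Enl-WT, 103.2 Mb in Enl-T1) taken off. They were 0.11 for Cdkn1c in all nuclei and 0.21 in progenitor-like nuclei, and -0.025 for Igf1r. Without that step the Igf1r levels in all nuclei were 10.9 and 11.9 CPM per kb, higher in Enl-T1. This alternative gave 1 higher and 1 lower member region in all nuclei. It gave 0.059 for Igf1r region 24 and 0.056 for Phlda2, both in all nuclei and both reversed. The number of values moved beyond the counting interval, or of counts moved beyond 1.5 times, was 36 per kb of peak (64 were not moved), 19 with 80% overlap (40 not), 6 by thinned shares (29 not), 5 by the median of ratios (97 not), 4 with a minimum of 50 counts per region and 4 with none (8 not in each), 3 with 5000 counts per nucleus (83 not), 2 with 2 kb upstream (34 not) and 2 at resolution 0.5 (47 not), and of the 16 values of gene lists 1 moved by the median of ratios and 1 with 5000 counts per nucleus. Removing doublets moved 0 of 86 values beyond its counting interval or a count beyond 1.5 times. Leaving out barcodes found in both libraries, also chosen after seeing the data, moved 3 of 86 and reversed none. The ratios of Igf2 and H19 in progenitor-like nuclei stayed above 0 under every alternative run. The causes were not tested. The lower depth of Enl-T1, and its 238 distal tubule- or loop-like and 624 endothelial-like nuclei, limit the precision of those classes most.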
